A study of Rattus norvegicus with 4 samples.

Results

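The MAP kinase phosphatases are the dual-specificity phosphatases that remove the activating phosphates from MAP kinases. All 10 members of this family, chosen by gene symbol (Dusp1, Dusp2, Dusp4 to Dusp10 and Dusp16), were measured among 19868 named genes. The cells were ventricular cardiomyocytes (heart muscle cells) from Sprague-Dawley rats at postnatal day 3. The 2 groups were 2 cultures infected with adenovirus carrying Smyd2, a lysine methyltransferase, and 2 cultures infected with adenovirus carrying beta-galactosidase (LacZ), a bacterial reporter. Both groups were first cultured for 48 h with cytosine arabinoside (20 µM), a drug against dividing cells, in medium holding 5% horse serum, and were then infected for 48 h. The titles of all 4 samples begin with siScr, a term left unexplained there. The treatment protocol mentions siRNA, a short gene-silencing RNA. siScr may thus stand for a scrambled control siRNA in both groups, but its use in these 4 cultures is not known here. The series design calls the 2 samples of a group biological replicates. The labels do not say whether they came from separate isolations, so the p-values measure the spread between these samples.

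ERK, JNK and p38 are the main MAP kinases, and each is switched on by phosphates on a threonine and a tyrosine of its activation loop. A MAP kinase phosphatase docks on its kinase and removes both. Some members sit in the nucleus and are themselves induced by the signal they end, others act on ERK in the cytoplasm, and others prefer JNK and p38. In the heart these kinases are known for their part in growth and stress responses.

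The members' results turned on Dusp5, which was lower on both Smyd2 arrays, and on Dusp6, which was high on 1 control array. Their promoters are shown with those of Dusp16, which was lower as well, and of Dusp1, the best-known inducible member. The sequences are RefSeq's of the GRCr8 rat assembly, are written 5′ to 3′ on the gene's strand and, for the first 3, end just before the annotated transcription start. They cover chr1:262543524-262543773 (plus strand), chr4:169361509-169361758 (minus strand), chr10:17184603-17184852 (plus strand) and chr7:35979354-35979501 (plus strand), the last with only the 148 bases that lie before the annotated span of Dusp6, which begins 102 bases ahead of the start used. Capitals mark matches to the CArG box, which serum response factor binds, or to the cyclic AMP response element, in full (TGACGTCA) or as its core (TGACG), on either strand.
Dusp5: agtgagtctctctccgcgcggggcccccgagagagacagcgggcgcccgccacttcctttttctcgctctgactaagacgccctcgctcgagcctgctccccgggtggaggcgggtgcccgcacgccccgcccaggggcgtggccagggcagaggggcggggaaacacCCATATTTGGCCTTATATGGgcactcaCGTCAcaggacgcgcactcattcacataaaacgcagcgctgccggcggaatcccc
Dusp16: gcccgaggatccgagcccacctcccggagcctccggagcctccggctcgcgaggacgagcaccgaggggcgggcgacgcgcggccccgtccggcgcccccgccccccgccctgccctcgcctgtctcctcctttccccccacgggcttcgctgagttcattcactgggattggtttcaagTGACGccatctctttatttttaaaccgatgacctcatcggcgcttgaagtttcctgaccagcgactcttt
Dusp1: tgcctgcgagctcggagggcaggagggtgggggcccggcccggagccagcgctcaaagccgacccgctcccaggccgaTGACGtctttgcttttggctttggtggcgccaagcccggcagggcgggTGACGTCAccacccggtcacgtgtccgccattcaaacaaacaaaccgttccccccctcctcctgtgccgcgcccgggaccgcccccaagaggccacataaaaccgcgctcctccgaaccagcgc
Dusp6: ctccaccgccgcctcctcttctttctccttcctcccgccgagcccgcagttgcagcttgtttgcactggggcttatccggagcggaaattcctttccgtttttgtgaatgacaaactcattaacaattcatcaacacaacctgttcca

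Motifs were counted in windows of 250 bases before and 50 bases after each annotated start, with an entry for 9 of the 10 members. Only the Dusp5 window among those 9 held a CArG box. It held 2 of them end to end, beginning at positions −82 and −72 relative to the start, and a cyclic AMP core at position −55. Of all 33469 promoter windows, 1.64% held at least 1 CArG box and 7 windows (0.021%) held 2 or more. The immediate early gene Egr1 and Srf, which encodes serum response factor, were among those 7. They were picked out after their values were seen and differed by −0.62 and −0.12 log2 units between the Smyd2 and control arrays. The Dusp1 window held the full cyclic AMP element at position −124, which contains 2 of its 3 cores, and the third core lay at position −172. The full element was found in 1.83% of all windows and the core, counted with or without the full element, in 21.2%. The AP-1 site TGANTCA was in none of the 9 windows and in 7.33% of all windows. These matches describe the letters of the windows. The windows of Dusp8 and Dusp10 lie inside the annotated span of their genes, and none of the 4 motifs was in them.

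The values are log2 intensities from single-colour arrays, normalized by the authors so that all 4 arrays had a median of 4.70 over 62976 features. A group mean under that median is called dim here, since the table used here carries no detection flags. Values of different genes come from different probes and were not set against each other. The arrays labelled Smyd2 did not read higher for Smyd2 itself, at 8.92 and 8.42, against 8.72 and 8.86 on the control arrays (log2 difference −0.12, SE 0.28, limma adjusted p = 0.913). Where this probe lies relative to the viral Smyd2 is not known here, so the groups go by their sample titles and so do all directions given. With limma, 0 of 19868 genes passed an adjusted p of 0.05, and 11.9% had an unadjusted p under 0.05. An exact permutation test of 2 arrays against 2 cannot go below p = 0.333.

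Markers of cell types differed between the groups as well. Of 18 cardiomyocyte markers, 17 were lower on the Smyd2 arrays, with a median of −2.16. Their summed level, the log2 of the sum of linear intensities, was 17.96 to 18.05 on the Smyd2 arrays and 19.20 to 19.31 on the control arrays, where some genes were at the top of the scale. Cardiac troponin I, Tnni3, read 12.73 and 12.59 on the Smyd2 arrays, against 14.80 and 14.86 on the control arrays, so the labelled cell type's markers were present in both groups. All 13 fibroblast markers were higher (median 0.97, summed level 17.29 to 17.45 on the Smyd2 arrays and 16.98 to 17.29 on the control arrays). All 12 leukocyte markers were higher too (median 1.48, summed level 12.61 to 13.99 on the Smyd2 arrays and 11.10 to 12.21 on the control arrays), with Ptprc dim on the control arrays. Of 10 smooth muscle and pericyte markers 8 were higher (median 0.58, summed level 16.37 to 16.68 on the Smyd2 arrays and 16.02 to 16.64 on the control arrays), and of 10 endothelial markers 6 were higher (median 0.19, summed level 11.36 to 11.43 on the Smyd2 arrays and 11.28 to 11.60 on the control arrays). With beta-galactosidase replicate 1 left out, 5 of the 10 smooth muscle and pericyte markers were lower (median −0.038) and the fibroblast median was 0.48. With the other control array left out, 6 of the 10 endothelial markers were lower (median −0.12). In such whole-culture RNA, fewer cells of a type and less RNA per cell cannot be told apart. The part of these shifts in the phosphatases' differences below was not tested.

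Of the 10 phosphatases, 9 were lower and 1 was higher on the Smyd2 arrays, with a median log2 difference of −0.56, against 48.8% of all genes lower and a median of 0.011. None passed limma's test over all genes (adjusted p of 0.1685 or more), and 4 had an unadjusted p under 0.05, all of them lower, where 6.39% of all genes were lower and 5.51% higher at that p. Those 4 were Dusp5, Dusp8, Dusp16 and Dusp9. When either Smyd2 array was omitted 1 was left, in fits that take the spread from the control pair and assume that the lone Smyd2 array varies alike. The differences there were −0.98 and −0.89 for Dusp8 and −0.70 and −0.67 for Dusp16. In 5 members both Smyd2 arrays lay below both control arrays, as in 20.8% of all genes, and in 0 members did they lie above, as in 21.9% of all genes (42.7% in either direction). Of the members, 6 were not dim in either group, and these 6 were lower, as were 48% of all genes not dim in either group. Without beta-galactosidase replicate 1 there were 7 lower members and the median was −0.41, beside 48.4% of all genes lower in that fit.

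**Figure D1:**
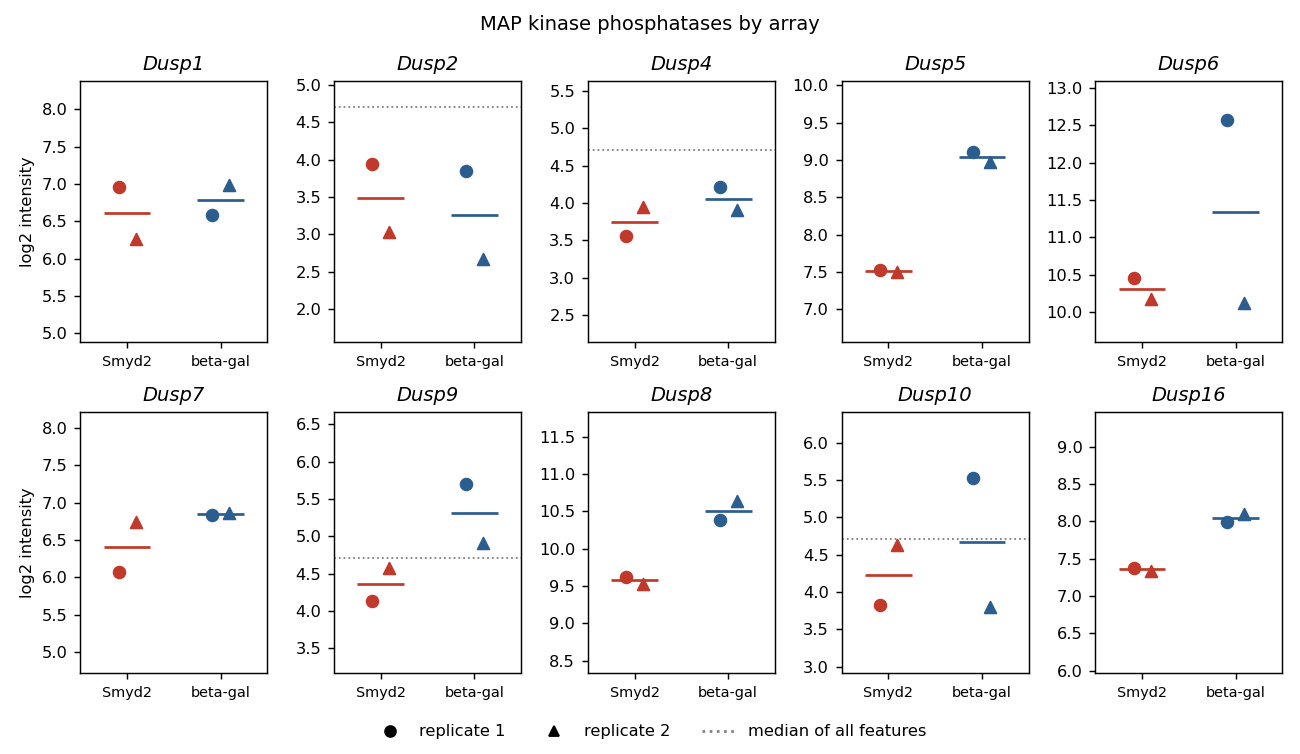
Log2 intensity of each MAP kinase phosphatase on the 4 arrays, with the 2 Smyd2 arrays left of the 2 beta-galactosidase (beta-gal) arrays in each panel, a horizontal bar at each group's mean and a dotted line at the median of all features where it falls in the panel. Panels have their own position on the axis and the same span; Dusp5, Dusp8 and Dusp16 separate the groups tightly, while Dusp6 stands at 12.57 on control replicate 1 and between 10.12 and 10.46 on the other 3 arrays.

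Dusp5, a nuclear phosphatase specific for ERK that ERK signalling induces, had the smallest p of the family. It read 7.52 and 7.50 on the Smyd2 arrays, against 9.11 and 8.97 on the control arrays. The arrays of each group lay close together and the groups were far apart, so that the gap was many times the spread within a group. The mean was 7.51 ± 0.02 on the Smyd2 arrays and 9.04 ± 0.10 on the control arrays (SD, n = 2 each), a 2.88-fold lower level. Dusp5 thus differed by −1.53 log2 units (SE 0.23, 95% interval −2.11 to −0.94), with a limma unadjusted p of 0.0011 and an adjusted p of 0.1685. Its other feature read 6.87 and 6.71 on the Smyd2 arrays, against 8.63 and 8.48 on the control arrays, a difference of −1.77. Both Dusp5 features thus gave the same picture. When limma's prior was made robust and let follow the intensity, under which 1.93% of all genes passed and 1.45% were lower, Dusp5 was the 1 member to pass, with an adjusted p of 0.0191. The adjusted p of Dusp5 ranged from 0.0191 to 0.792 over 11 alternatives, while its difference stayed between −1.65 and −1.46.

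The other inducible nuclear members showed no such gap. Dusp1, which acts on p38, JNK and ERK and is an immediate early gene, read 6.96 and 6.27 on the Smyd2 arrays, against 6.59 and 6.99 on the control arrays. The groups overlapped, with a difference of −0.17 (SE 0.34, 95% interval −1.04 to 0.70). Dusp4, a nuclear relative of Dusp1, was dim in both groups, with 3.56 and 3.95 on the Smyd2 arrays and 4.21 and 3.90 on the control arrays. Dusp2, best known from activated lymphocytes, was dim in both groups too, with 3.94 and 3.04 on the Smyd2 arrays and 3.85 and 2.66 on the control arrays. It was the 1 member with a higher mean on the Smyd2 arrays (0.23, SE 0.52), and its groups overlapped. No change in Dusp2 or Dusp4 can be read at these levels.

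Among the cytoplasmic phosphatases of ERK, Dusp6 was the member in which 1 control array decided the difference. Dusp6 is induced by ERK signalling and ends it in the cytoplasm. It read 10.46 and 10.17 on the Smyd2 arrays, against 12.57 and 10.12 on the control arrays. Beta-galactosidase replicate 1 was high, and the other control array lay just below the Smyd2 arrays, so the groups overlapped. The mean was 10.31 ± 0.21 on the Smyd2 arrays and 11.34 ± 1.74 on the control arrays (SD, n = 2 each). The difference of −1.03 (SE 0.81, 95% interval −3.12 to 1.06, limma adjusted p = 0.694) became 0.20 without beta-galactosidase replicate 1, and it was −2.26 with the other control array left out.

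The same pattern was present in all 10 features that name Dusp6. They read 9.87 to 10.46 on Smyd2 replicate 1 and 9.52 to 10.21 on Smyd2 replicate 2, against 11.99 to 12.57 on control replicate 1 and 9.31 to 10.12 on control replicate 2. In each feature control replicate 1 exceeded the highest other array, by 1.92 to 2.40. The tables used here do not say whether these features are copies of 1 probe. A gap as large as the 2.11 of the brightest feature was seen on control replicate 1 in 25 of 19868 genes (0.126%). This count was made after the values were seen, with the cut-off and the array taken from Dusp6 itself, so it is no test.

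The control arrays also differed from each other in marker genes, in both directions. On control replicate 1, against control replicate 2, 9 of 13 fibroblast markers were lower and 4 higher, with a median difference of −0.36 and a range of −2.77 to 1.21. Of 10 smooth muscle and pericyte markers, 6 were lower and 4 higher (median −0.26, range −2.62 to 1.06). Leukocyte markers were mostly higher there, 9 of 12 (median 0.73), as were 7 of 10 endothelial markers (median 0.63), while 12 of 18 cardiomyocyte markers were lower (median −0.12). The widest gap in the fibroblast list was that of Dcn, which read 9.40 and 8.84 on the Smyd2 arrays, against 6.49 and 9.26 on the control arrays. The part of these differences between the control cultures in the Dusp6 value was not tested.

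Dusp7, a close relative of Dusp6, read 6.08 and 6.74 on the Smyd2 arrays, against 6.84 and 6.86 on the control arrays. The groups did not overlap, but the gap between them was smaller than the spread between the 2 Smyd2 arrays, and the difference was −0.44 (SE 0.31, 95% interval −1.23 to 0.35). Without Smyd2 replicate 1 it was −0.10. Its other feature was dim in both groups and differed by −0.63. Dusp9, the third of these ERK phosphatases, read 4.14 and 4.58 on the Smyd2 arrays, against 5.70 and 4.92 on the control arrays. It was dim on the Smyd2 arrays only, so the size of its difference of −0.95 (SE 0.36, limma unadjusted p = 0.0471, adjusted p = 0.412) may be a lower bound. Without beta-galactosidase replicate 1 the difference was −0.56.

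Dusp8, Dusp10 and Dusp16 prefer the stress-activated kinases JNK and p38. Dusp8, known from brain and heart, read 9.62 and 9.53 on the Smyd2 arrays, against 10.39 and 10.63 on the control arrays. The groups were apart and each was tight, with means of 9.58 ± 0.06 on the Smyd2 arrays and 10.51 ± 0.17 on the control arrays (SD, n = 2 each). The difference was −0.93 (SE 0.24, 95% interval −1.55 to −0.32), a 1.91-fold lower level with a limma unadjusted p of 0.0112 and an adjusted p of 0.287.

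Dusp16, a JNK phosphatase that moves between nucleus and cytoplasm, read 7.37 and 7.34 on the Smyd2 arrays, against 7.99 and 8.09 on the control arrays. Its difference was −0.68 (SE 0.23, limma unadjusted p = 0.0293, adjusted p = 0.365). Its other feature, designed on another transcript record, read 6.35 and 6.38 on the Smyd2 arrays, against 6.58 and 6.71 on the control arrays. Both Dusp16 features separated the groups in the same direction, the other one by −0.28 only. Dusp10 read 3.83 and 4.63 on the Smyd2 arrays, against 5.53 and 3.80 on the control arrays. Its group means were dim, the groups overlapped, and the difference of −0.44 (SE 0.64) turned to 0.43 without beta-galactosidase replicate 1.

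**Figure D2:**
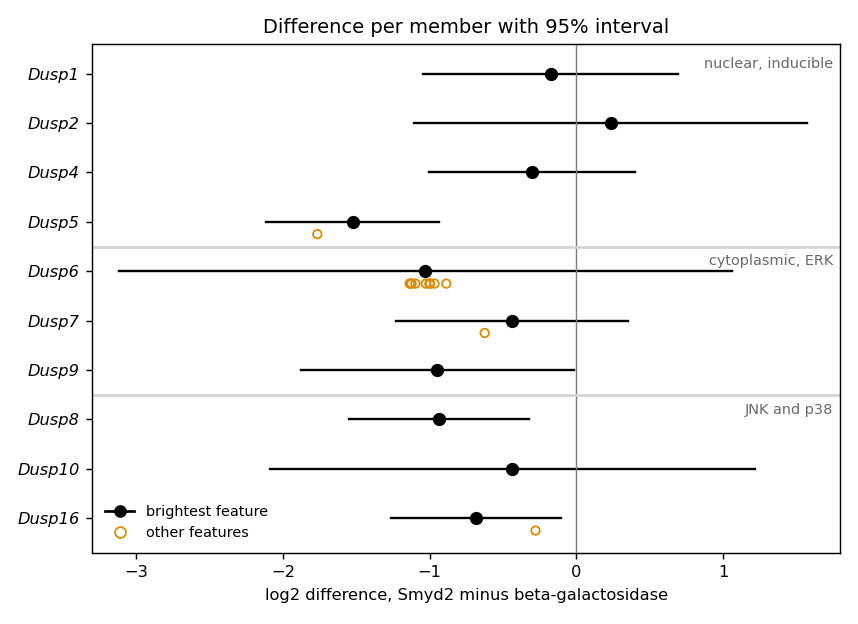
Log2 difference of each MAP kinase phosphatase, Smyd2 minus beta-galactosidase, in order of the members' roles. Filled points are the brightest feature of a gene with its 95% interval from limma (2 arrays per group), and open points are the other features; the intervals of Dusp5, Dusp8, Dusp9 and Dusp16 lie below 0, and none of these 4 passed after adjustment over all genes.

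The phosphatases outside this family were measured in a second list of 23 atypical dual-specificity, slingshot and tyrosine phosphatases. Here 14 genes had a lower and 9 a higher mean (median difference −0.19), and 0 passed limma's adjusted test, while 6 were lower and 1 higher at an unadjusted p under 0.05, against 6.39% and 5.51% of all genes. The smallest p belonged to Dusp26, an atypical phosphatase, which read 6.90 and 6.39 on the Smyd2 arrays, against 8.72 and 9.90 on the control arrays. All 10 of its features were lower, by −3.05 to −2.60 log2 units, and none overlapped between the groups. Whether these features are copies of 1 probe is not known here. By the brightest feature, 20.8% of all genes were lower without overlap. Dusp22, an atypical phosphatase of the JNK pathway, had means of 8.33 ± 0.11 on the Smyd2 arrays and 9.86 ± 0.39 on the control arrays (SD, n = 2 each). Ptprr, a tyrosine phosphatase that docks on ERK, was dim on the Smyd2 arrays (3.61 ± 0.16, against 5.22 ± 0.52), so its difference of −1.61 may be a lower bound. Styxl2, a phosphatase relative of striated muscle without catalytic activity, differed by −2.32 (SE 0.58). Under the trend and robust prior 2 of these 23 genes passed, against 1.93% of all genes.

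Kinases of the pathway were found both lower and higher. Among 12 MAP kinases the signs split 6 lower to 6 higher (median −0.019), and none had an unadjusted p under 0.05. Of these 12, 4 were dim in both groups, all of them with a higher mean on the Smyd2 arrays. Over only genes with a mean of at least 6 the median was −0.18. Without beta-galactosidase replicate 1, 8 of the 12 were lower (median −0.11), against 48.4% of all genes in that fit. Mapk8, which encodes a JNK, had the smallest p and read 6.20 and 6.48 on the Smyd2 arrays, against 6.66 and 7.45 on the control arrays. Mapk13, a p38 kinase, differed by −0.56 (SE 0.28). Among 29 upstream kinases and activators they split 14 lower to 15 higher (median 0.028), and 3 of the 29 were lower at an unadjusted p under 0.05, against 6.39% of all genes. Those 3 were the stress kinases Map3k5 (6.96 and 6.94 on the Smyd2 arrays, against 8.17 and 7.74 on the control arrays) and Map3k2 (−0.74, SE 0.25, dim on the Smyd2 arrays), and the p38 activator Map2k3 (−0.66, SE 0.25). Among 11 kinases activated by MAP kinases they split 7 lower to 4 higher (median −0.075). The ribosomal S6 kinase Rps6ka2 differed by −1.25 (SE 0.31) and the p38- and ERK-activated Rps6ka4 by 1.21 (SE 0.31), with 1 group dim in each.

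The other feedback inhibitors of ERK signalling lay on both sides. Among 14 measured, 5 read lower and 9 higher on the Smyd2 arrays (median 0.11). At a limma unadjusted p under 0.05, 2 were higher and 0 lower, against 5.51% and 6.39% of all genes. Errfi1, an inhibitor of the EGF receptor, read 12.14 and 12.11 on the Smyd2 arrays, against 11.30 and 10.30 on the control arrays, and its other feature differed by 1.49. Spry3, a Sprouty inhibitor, differed by 0.99 (SE 0.26) and was dim on the control arrays. Spry1 differed by 0.70 (SE 0.31) and did not reach an unadjusted p of 0.05. Whether they differ from the phosphatases was not tested.

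This list, like the members and the other lists, was chosen with earlier results of these data known and was not tested as a set. Genes known as outputs of ERK signalling in other cells were lower in all 15 measured cases, where 48.8% of all genes were lower. Their median difference was −0.96, and none passed limma's adjusted test. In 8 of the 15 both Smyd2 arrays lay below both control arrays, as in 20.8% of all genes. In 0 did they lie above, as in 21.9% of all genes. At a limma unadjusted p under 0.05, 2 were lower, against 6.39% of all genes. The first of these, the EGF receptor ligand Areg, read 5.43 and 4.41 on the Smyd2 arrays, against 6.33 and 7.16 on the control arrays. The other, Phlda1, read 6.47 and 6.33 on the Smyd2 arrays, against 8.57 and 7.26 on the control arrays. Next came the urokinase receptor Plaur (−1.25, SE 0.51), whose other feature differed by −0.086, and the ephrin receptor Epha2, with 8.69 and 8.74 on the Smyd2 arrays, against 10.27 and 9.15 on the control arrays.

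Beta-galactosidase replicate 1 stood high in much of this list, as it did for Dusp6. It was the highest array in 10 of the 15 genes, against 25.1% of all genes, and exceeded the highest other array by at least 1 log2 unit in 7 of them, against 1.03% of all genes. This count was made after the values were seen, and the 7 were Fosl1, Hmga1, Ccnd1, Plaur, Phlda1, Epha2 and Myc. Fosl1, a FOS-related factor, read 6.30 and 5.81 on the Smyd2 arrays, against 8.49 and 5.73 on the control arrays. Cyclin D1, Ccnd1, read 9.98 and 10.07 on the Smyd2 arrays, against 11.81 and 10.24 on the control arrays. In both genes the second control array stood close to the Smyd2 arrays and the first far above. With beta-galactosidase replicate 1 left out, 11 of the 15 were lower (median −0.42), against 48.4% of all genes in that fit. With the other control array left out, 14 were (median −1.24), against 9851 of all 19868 genes. Dusp5 differed from this pattern in that its 2 control arrays were 0.14 apart.

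**Figure D3:**
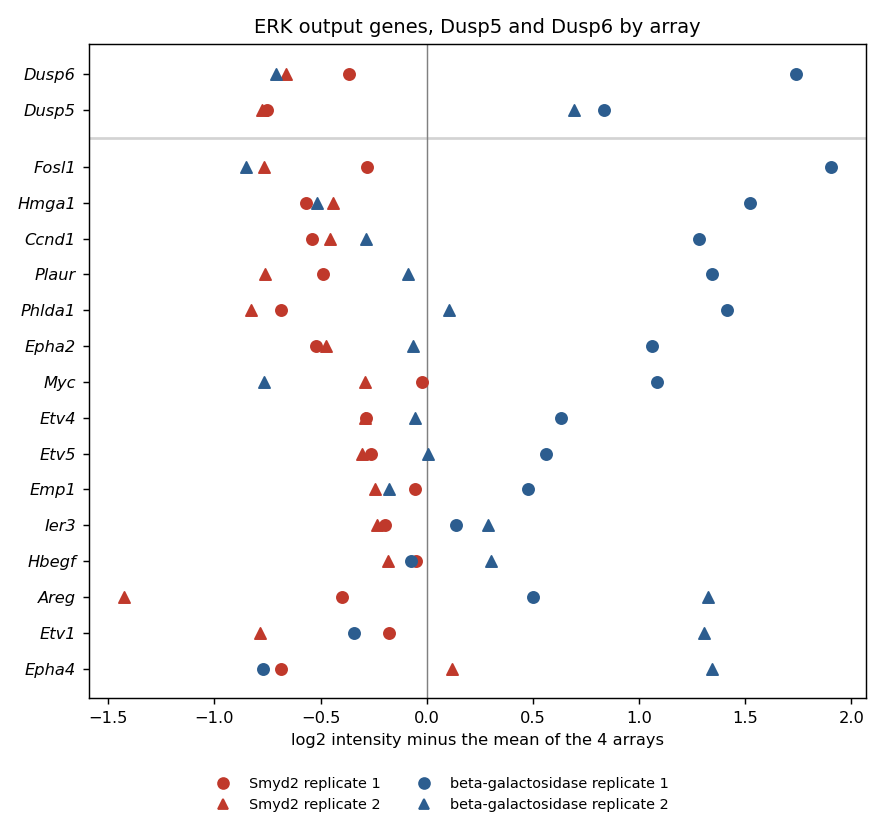
Log2 intensity minus the mean of the 4 arrays for 15 ERK output genes, ordered by how far beta-galactosidase replicate 1 exceeds the highest other array, with Dusp6 and Dusp5 above the line. Red points are the 2 Smyd2 arrays and blue points the 2 beta-galactosidase arrays. Control replicate 1 (blue circle) lies apart for Dusp6 and for the 7 genes from Fosl1 to Myc. For Dusp5 the 2 control arrays lie close together and above both Smyd2 arrays. Of those 7 genes, Ccnd1, Plaur, Phlda1 and Epha2 also have both control arrays above both Smyd2 arrays.

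Immediate early genes, which respond within minutes to MAP kinase signals, were lower in 18 of 21 cases, with a median of −0.30. Of all genes 48.8% were lower. Without beta-galactosidase replicate 1, 14 of the 21 were lower, against 48.4% of all genes in that fit. At a limma unadjusted p under 0.05, 1 of the 21 was lower and 1 higher, against 6.39% and 5.51% of all genes. The lower gene was Maff (8.63 ± 0.03 on the Smyd2 arrays and 9.40 ± 0.41 on the control arrays, SD, n = 2 each). The higher gene was the RNA-decay factor Zfp36, which was dim in both groups. The orphan receptor Nr4a3 differed by −0.80 (SE 0.32).

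**Figure D4:**
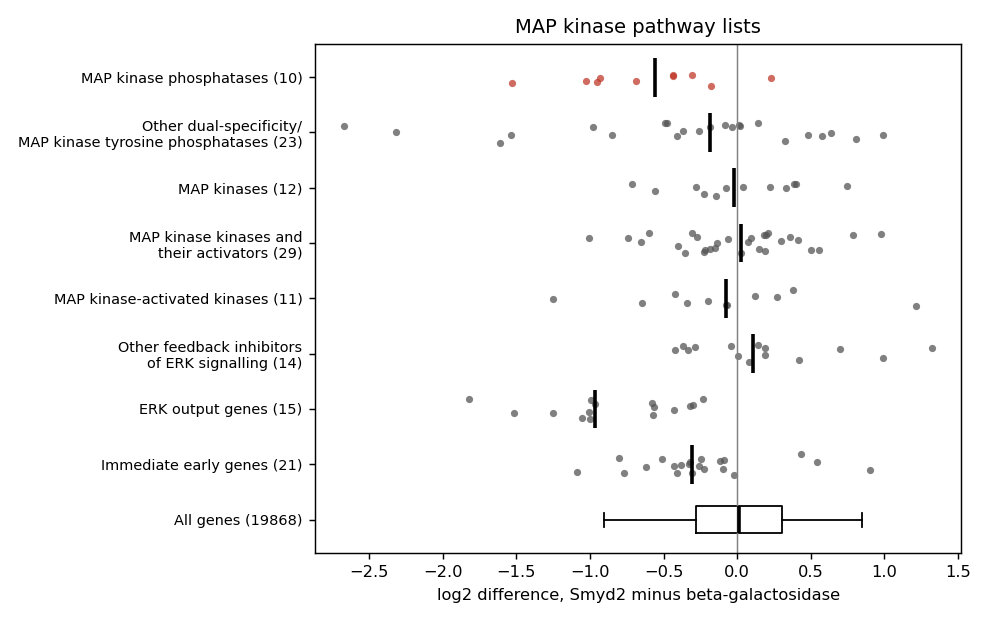
Log2 difference, Smyd2 minus beta-galactosidase, of each gene (points) in the MAP kinase phosphatase list and 7 related lists, with the list's median as a vertical bar and the number of genes in brackets. The box gives the quartiles and median of all 19868 genes and its whiskers the 5th and 95th percentiles; the ERK output genes lie wholly below 0 and the MAP kinases lie on both sides.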

How the data were processed

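Groups and replicate numbers came from the sample titles, and each of the 4 samples was hybridised to its own Cy3 array, per the labels' protocols. The deposited table holds log2 intensities that the authors had normalized. The unit was read from the values, whose quartiles are alike in all 4 arrays as after quantile normalization. The submitters' processing notes name limma; its steps, like the background correction, were not given in the sources used here. Precision is limited by the number of arrays. Of 62976 features 36191 were given 1 gene symbol, 28236 of them matched through a RefSeq accession and 457 through an older symbol, and 3339 symbols differed from those of the platform annotation. This left 19868 genes, each represented by its brightest feature on average. The comparison used R 4.3.3 and limma 3.58.1 (eBayes after lmFit, 2 residual and 3.01 prior degrees of freedom, two-sided, no filter). The p-values were adjusted over all genes by Benjamini-Hochberg, and the fit was tested on simulated data. Alternatives were other normalization, a dim-gene filter, variance trends, a replicate block, other uses of features, and leaving out each array. Named genes were all members and, from each other list, the 2 to 4 with the smallest p; of the marker lists, only a few defining genes such as Tnni3, Ptprc and Dcn. Egr1, Srf, Actc1 and the ERK output genes named for their value on control replicate 1 lie outside that rule. They were chosen after their values were seen. The members and lists were chosen with earlier results of these data known. Listed genes outside the counts were not analysed here.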

Additional observations from a re-analysis of the deposited data

How the results depend on the processing

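Repeated quantile normalization and centring on the median left the 9 lower phosphatases and their median of −0.56 as they were. An intensity trend with a robust prior gave 383 genes with an adjusted p under 0.05, and a trend alone gave 243, against 0 without a trend; 1 phosphatase, Dusp5, was among each. With only genes of a mean of at least 6, the members' median was −0.81 over 6 members, and the medians were −0.18 for MAP kinases, −0.10 for their activators and 0.0050 for feedback inhibitors. The mean of all features gave 0.076 for the activators. With every feature on its own, 21 of 22 member features were lower with a median of −0.96, 4346 features had an unadjusted p under 0.05, and medians were −0.39 for the other phosphatases and −0.14 for MAP kinases; these count features, so genes with many weigh more. Over genes, the correlation of replicate 1 minus replicate 2 between the groups was 0.032. Whether samples of the same number came from the same isolation cannot be told from this value. With the replicate number as a block, 2 members in place of 4 had an unadjusted p under 0.05, and no member passed after adjustment.

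Leaving out each array in turn, 7 to 10 members were lower, their median ran from −0.80 to −0.41, and 1 to 5 had an unadjusted p under 0.05, with 1 left without either Smyd2 array. Over all genes that count ran from 1149, without Smyd2 replicate 1, to 3151, without beta-galactosidase replicate 1. The medians ran from −0.28 to −0.055 for the other phosphatases, from −0.12 to -2.9e-05 for MAP kinases, from −0.11 to 0.030 for the activators, from −0.29 to 0.13 for the kinases activated by MAP kinases, from −0.0085 to 0.13 for feedback inhibitors, from −1.24 to −0.42 for ERK output genes and from −0.35 to −0.22 for immediate early genes. Dusp1 ran from −0.52 to 0.17, turning to 0.026 without beta-galactosidase replicate 2 and to 0.17 without Smyd2 replicate 2. Dusp2 ran up to 0.82 and turned to −0.36 without beta-galactosidase replicate 2 and to −0.22 without Smyd2 replicate 1. Without beta-galactosidase replicate 1, Dusp6 turned to 0.20 and Dusp10 to 0.43; their lowest values, without beta-galactosidase replicate 2, were −2.26 and −1.30. Smyd2 ran from −0.37 to 0.13, 0.13 being the value without Smyd2 replicate 2. Dusp4, Dusp5, Dusp7, Dusp8, Dusp9 and Dusp16 kept their direction in all alternatives run. With 1 array left out the size still ran from −0.77 to −0.10 for Dusp7 (nearest 0 without Smyd2 replicate 1), from −1.34 to −0.56 for Dusp9 (without beta-galactosidase replicate 1) and from −0.50 to −0.11 for Dusp4 (without Smyd2 replicate 1). Beyond the array left out, the cause of these moves was not tested. With 2 arrays per group, and with Dusp2, Dusp4 and Dusp10 dim in both groups, small or dim differences could not be read.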
